A study of Mus musculus with 2 samples.

Results

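The aryl hydrocarbon receptor gene *Ahr*, the gene of its partner *Arnt*, that of its repressor *Ahrr* and 4 standard target genes (*Cyp1a1*, *Cyp1b1*, *Tiparp* and *Nqo1*) were followed in cultured mouse ureters after WNT secretion had been blocked. The 7 genes were taken by name from the 29924 gene names on the arrays, with every probe that carries one of these names. They were chosen with their ratios of IWP-2 over control in these arrays already known, so those ratios are given as a description and support nothing by themselves. All 7 were present, with 12 probes in all: 3 genes had 1 probe, 3 had 2 and 1 had 3.

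Ureters of newborn (P0) wildtype NMRI pups were kept on membranes for 18 h with 5 µM IWP-2, which blocks PORCN, the acyltransferase that WNT ligands need for secretion, or with the solvent DMSO diluted 1:1000. Total RNA was compared on 2 two-colour Agilent arrays, each with 1 control pool and 1 treated pool of 5 or 6 ureters. The pools were female in replicate 1, with the control labelled green and the treated RNA red, and male in replicate 2, with the dyes exchanged. Sex and dye orientation therefore change together and cannot be told apart. All pools were grown in medium with serum, and each was a whole ureter, so that fewer cells of a type and less RNA per cell cannot be told apart in any value below.

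AHR is a transcription factor of the bHLH-PAS family. It resides in the cytoplasm with HSP90 and other chaperones, enters the nucleus when a ligand such as a dioxin or a tryptophan metabolite binds it, pairs with ARNT and binds DNA at a short core, GCGTG, known as the dioxin response element. Its classical targets encode enzymes that oxidise or conjugate the ligand, and 2 of its targets, *Ahrr* and *Tiparp*, encode proteins that restrain the receptor again.

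The stretches directly before the start sites of *Cyp1a1*, *Ahrr*, *Cyp1b1* and *Nqo1* are shown because these targets gave ratios on both sides of 0. The sequences are from RefSeq (GRCm38.p6), run 5′ to 3′ on the gene's own strand and cover the 250 bases that end at the base before the start. Capitals mark GCGTG or, where it lies on the other strand, CACGC. The table used held a promoter for 6 of the 7 genes, and that of *Ahr* was not analysed here.
Cyp1a1 (chr9:57697363-57697612, plus strand): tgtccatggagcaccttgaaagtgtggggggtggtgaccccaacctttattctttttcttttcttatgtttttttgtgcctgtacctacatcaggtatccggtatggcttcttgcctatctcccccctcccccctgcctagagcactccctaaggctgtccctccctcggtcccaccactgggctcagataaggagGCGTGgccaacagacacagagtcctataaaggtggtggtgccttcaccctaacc
Ahrr (chr13:74292332-74292581, minus strand): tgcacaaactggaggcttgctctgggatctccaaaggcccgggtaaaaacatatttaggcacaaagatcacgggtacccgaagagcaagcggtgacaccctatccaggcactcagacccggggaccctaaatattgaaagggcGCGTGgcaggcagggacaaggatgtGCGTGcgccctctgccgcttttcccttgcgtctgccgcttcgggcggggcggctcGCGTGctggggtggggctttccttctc
Cyp1b1 (chr17:79715062-79715311, minus strand): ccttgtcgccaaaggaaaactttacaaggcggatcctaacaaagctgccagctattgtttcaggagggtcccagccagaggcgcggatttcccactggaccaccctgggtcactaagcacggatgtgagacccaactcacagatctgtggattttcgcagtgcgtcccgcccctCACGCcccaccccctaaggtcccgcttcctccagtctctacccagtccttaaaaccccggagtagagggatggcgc
Nqo1 (chr8:107403206-107403455, minus strand): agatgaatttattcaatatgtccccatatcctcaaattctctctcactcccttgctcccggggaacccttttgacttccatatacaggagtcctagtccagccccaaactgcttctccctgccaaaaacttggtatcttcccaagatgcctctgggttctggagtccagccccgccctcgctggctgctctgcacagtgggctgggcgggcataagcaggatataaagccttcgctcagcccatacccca

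*Ahrr* held the core 3 times, the nearest between 27 and 23 bases before the start. That copy also matched the longer form TNGCGTG, which overlaps the core. *Cyp1a1* held it once, 54 to 50 bases before the start, *Cyp1b1* once on the other strand, 76 to 72 bases before, and *Nqo1* did not hold it. *Arnt* and *Tiparp*, not printed, each held 1 copy. Among 32851 promoters of the same length, searched on both strands, 28.2% held GCGTG at least once, 8.63% at least 2 times and 4.1% held TNGCGTG. The antioxidant element TGACNNNGC was found in 10.2% of all promoters and, among the 6, 2 times in *Arnt* and in no other. The TCF/LEF core CTTTGA, the site through which β-catenin acts on WNT targets, was found in 13.8% of all promoters and in 0 of the 6. A match is a run of letters and no measured binding, and the well-known response elements of *Cyp1a1* lie further upstream. Sites beyond these 250 bases, of *Nqo1* or any other gene, were not searched.

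Each probe was printed as 4 spots. On the 2 arrays 3.22% to 3.32% of 157716 spots carried an outlier flag and were left out, 0 were saturated, and 68.4% to 70.0% were well above background by the scanner software's own criterion. Each gene was represented by its brightest probe. The 14336 genes whose mean signal exceeded 100 in the control, the IWP-2 pools or both were tested with limma on their 2 log2 ratios against 0. The SD of these ratios over genes was 0.22 in replicate 1 and 0.17 in replicate 2, while the spots of a probe differed by a median SD of 0.03 on either array. *Axin2*, a direct WNT target, had signals of 181 and 154 in the controls and 42.2 and 46.7 with IWP-2 (mean log2 ratio -1.91, limma, adjusted p = 0.000824), and *Porcn*, the target of IWP-2, differed by a mean of -0.04 (adjusted p = 0.958). Only 2 arrays, with 1 pool per channel, limit the precision of everything that follows. Signals are in arbitrary units and are compared between the pools of an array. Where signals of the 2 arrays are set side by side, array scale and dye differ as well.

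**Figure D1:**
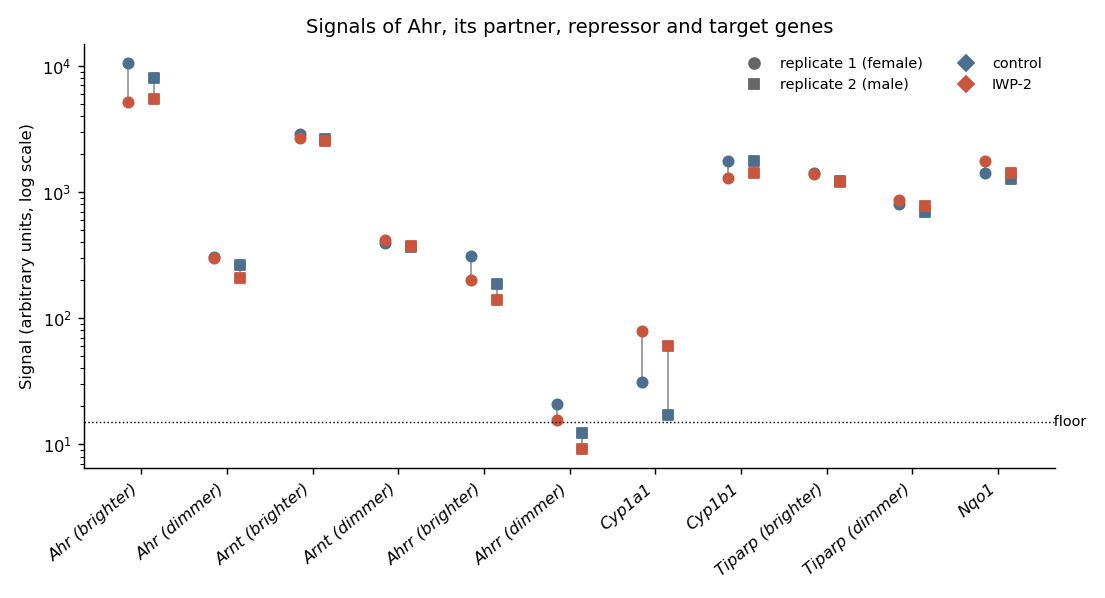
Signals in arbitrary units (log scale) of the 11 probes above background for the 7 genes. Blue symbols are control pools and red symbols IWP-2 pools, circles are replicate 1 (female) and squares replicate 2 (male), grey lines join the 2 pools of an array, and the dotted line is the floor of 15. For *Cyp1a1* both red symbols stand above the blue ones, for the brighter *Ahr* probe both stand below, and for *Tiparp* and *Arnt* they nearly cover each other.

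The receptor itself was lower and *Cyp1a1* was higher with IWP-2 on both arrays, while the repressor *Ahrr* and the target *Cyp1b1* were lower and *Arnt* and *Tiparp* were close to 0. In the fit across all genes 6 of the 7 genes could be tested, and 2 of them, *Ahr* and *Ahrr*, passed an adjusted p of 0.05, both as lower. Over all 14336 genes tested, 0.886% were called lower, 0.363% higher and 1.25% in either direction. As the genes were picked from this contrast, nothing is read from the 2 of 6. The study filtered its arrays on the control signal and the fold change. With that filter read here as a control signal above 100 and at least 1.5-fold in one direction on each of the 2 arrays, none of the 6 passed, and *Ahr* missed it in replicate 2. Of the 14051 genes with such a control signal, 0.363% passed as lower and 0.0783% as higher. The study's own list of lower genes is longer than the one this reading gives. It names *Ahr* as an additional candidate that is lower with IWP-2 on these arrays. By RNA in situ hybridization it reports *Ahr* in the lamina propria at P0 and reduced in treated ureters.

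*Ahr* was measured by 2 probes that differed in their response. The brighter one (mm9, chr12:36182724-36182783, minus strand) read 10468 for the control pool against 5195 for the treated pool of replicate 1, and 7950 against 5499 in replicate 2. Both treated pools lay below both controls. The log2 ratios were -1.01 and -0.53, a mean of -0.77 (SD 0.34, n = 2 arrays), or 1.71-fold lower. On each array the spots did not overlap: in replicate 1 the control spots lay between 9869 and 11200 and the treated spots between 5005 and 5373, and in replicate 2 between 7826 and 8032 and between 5264 and 5791. Spots are repeated prints for the same pools, so they show the precision of the measurement and not a repeated treatment. Spot values, here and for *Cyp1a1*, are from before the second loess.

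The arrays were less alike for *Ahr* than for most genes. The gap of 0.48 between its 2 log2 ratios was exceeded by 2.49% of the genes tested. The controls differed by 1.32-fold between the arrays and the treated pools by 0.94-fold, replicate 1 over replicate 2. Signals were not scaled between the arrays and each condition changed its dye, so these values do not place the gap in the control or the treated pools. Whether sex, dye or the pool accounts for the gap cannot be told apart. In the order of mean log2 ratios among 19495 genes well above background in all 4 channels, *Ahr* was the 65th from the lowest.

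The dimmer *Ahr* probe (chr12:36188523-36188582, minus strand) starts 5799 bases away and names the same RefSeq transcript. Its signals were 304 and 298 in replicate 1 and 263 and 208 in replicate 2, with log2 ratios of -0.03 and -0.34 (mean -0.19, SD 0.22, n = 2). The array with the larger ratio at the brighter probe was thus the one with almost no difference at the dimmer probe. With the mean over both probes *Ahr* came to -0.48 and no longer passed the test. Which exon or UTR either probe lies in was not analysed here.

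*Arnt* encodes the partner that AHR needs to bind DNA and that also serves the hypoxia factors. Its brightest probe (chr3:95301081-95301140, plus strand) gave 2895 and 2684 in replicate 1 and 2639 and 2556 in replicate 2, log2 ratios of -0.11 and -0.05 (mean -0.08, SD 0.045, n = 2). A second probe (chr3:95299434-95299493) went from 391 to 416 and from 364 to 376, with ratios of 0.09 and 0.05. The direction of *Arnt* therefore depended on the probe, and neither difference was larger than 1.08-fold. The remaining probe, named for another transcript (chr3:95264558-95264617), was not well above background in any channel.

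*Ahrr* encodes the repressor that competes with AHR for ARNT and is itself switched on by AHR. Its brighter probe (chr13:74348566-74348612, minus strand) gave 309 in the control and 201 in the treated pool of replicate 1, and 187 and 139 in replicate 2. The treated pool was the lower one on both arrays, although the treated pool of replicate 1 lay above the control of replicate 2. The log2 ratios were -0.62 and -0.43 (mean -0.52, SD 0.14, n = 2), or 1.44-fold lower. The dimmer *Ahrr* probe (chr13:74350685-74350744) was close to the floor, with signals of 20.8 and 15.6 in replicate 1 and both signals under the floor of 15 in replicate 2. Its log2 ratio in replicate 1 was -0.42, and with a floor of 1 that of replicate 2 was -0.41.

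**Figure D2:**
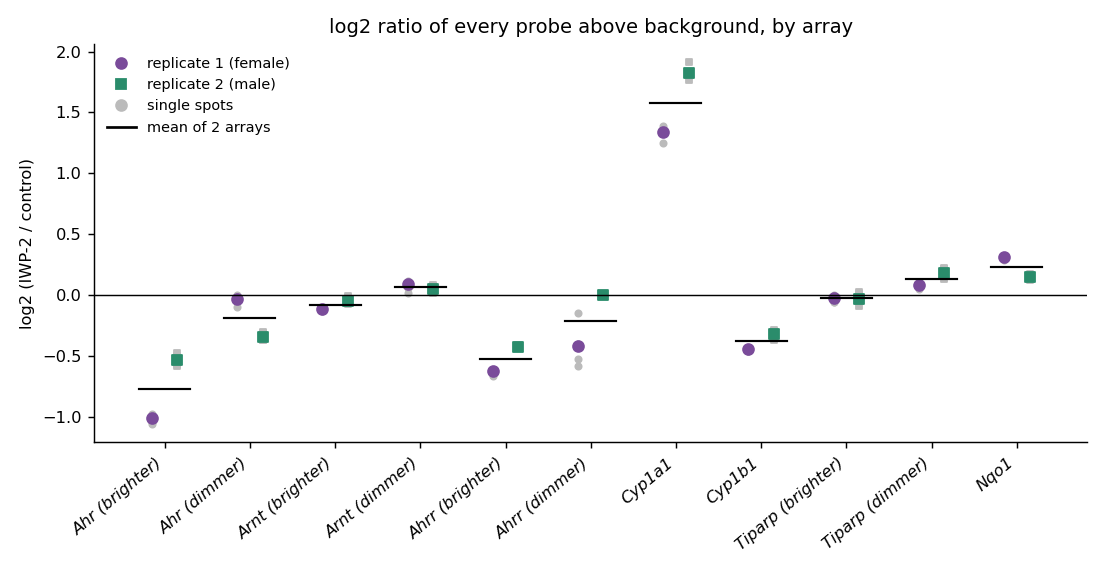
Log2 ratio of IWP-2 over control (vertical axis) for each of the 11 probes above background. Coloured symbols are the arrays (circles, replicate 1; squares, replicate 2), small grey symbols are single spots before the second loess step, and black bars are means of the 2 arrays. *Cyp1a1* stands alone at 1.34 and 1.83, the 2 probes of *Ahr* differ, and *Tiparp* and *Arnt* have 1 probe on each side of 0.

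*Cyp1a1*, the monooxygenase gene most used as a readout of AHR activity, moved opposite to its receptor. The probe (chr9:57551535-57551594, plus strand) gave 31.4 in the control and 79.2 in the treated pool of replicate 1, and 17.0 and 60.2 in replicate 2. Both treated pools lay above both controls. The log2 ratios were 1.34 and 1.83 (mean 1.58, SD 0.35, n = 2), which is 2.53-fold and 3.55-fold higher. In replicate 1 the 3 spots kept lay between 30.1 and 32.5 in the control and between 77.0 and 80.3 with IWP-2, and in replicate 2 the 4 spots lay between 14.7 and 18.1 and between 56.5 and 63.5. All 4 channels were well above background.

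*Cyp1a1* did not enter the fit, because its signal stayed below 100 in both conditions. Among the 19495 genes well above background in all 4 channels it had the 2nd highest mean ratio. It was 1 of 2 genes (0.0103%) that were at least 2-fold higher on both arrays. The other was *Lrrc55*, named here after its values were seen. To compare it with genes of like brightness, *Cyp1a1* was also set beside the 2334 such genes with control signals between 10 and 40 on both arrays. Their log2 ratios had an SD of 0.25 in replicate 1 and 0.21 in replicate 2. *Cyp1a1* was the 1 gene among them that was 2-fold higher on both. Part of this range of control signals lies below the floor, which shrinks ratios toward 0, and their median was 0 on both arrays. The floor thus lowers these SDs and can hide 2-fold differences. How far *Cyp1a1* stands out from genes of like brightness is therefore not settled by this comparison. With the threshold at 50 *Cyp1a1* would pass only through the treated pools, where it was high, so no call is read from that setting. With no filter on signal, or with the well above background criterion in its place, *Cyp1a1* was in the fit and not called, and limma then called 0 genes in all (2028 and 2133 genes had an unadjusted p under 0.05). With normexp background correction its mean ratio was smaller, 1.13. It was then in the fit and called, as were 435 of 19760 genes in all. Whether it entered through the treated pools alone was not analysed here, so no call is read from that setting either.

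*Cyp1b1*, the related monooxygenase of mesenchymal and other extrahepatic tissue, did not go with *Cyp1a1*. Its probe (chr17:80106547-80106606, minus strand) gave 1761 and 1297 in replicate 1 and 1759 and 1412 in replicate 2. The controls were nearly equal and both treated pools lay below them. The log2 ratios were -0.44 and -0.32 (mean -0.38, SD 0.088, n = 2), or 1.30-fold lower, and the gene was not called. With normexp background correction it was called, at the same mean of -0.38.

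*Tiparp* encodes a mono-ADP-ribosyltransferase that modifies AHR and dampens it, and it is usually induced with *Cyp1a1*. Its brighter probe (chr3:65358749-65358808, plus strand) gave 1409 and 1386 in replicate 1 and 1220 and 1196 in replicate 2, with log2 ratios of -0.02 and -0.03. Its second probe (chr3:65357710-65357769) gave 808 and 857 and then 688 and 781, with ratios of 0.09 and 0.18. The mean of -0.03 at the brighter probe turned to 0.02 with median centring and to 0.05 with the mean over both probes, so *Tiparp* had no settled direction.

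*Nqo1* encodes a quinone reductase and is driven by AHR and, through antioxidant elements, by NRF2. Its probe (chr8:109912440-109912499, minus strand) gave 1405 and 1746 in replicate 1 and 1265 and 1405 in replicate 2. The treated pool was the higher one on each array, and the treated pool of replicate 2 had the same signal as the control of replicate 1. The log2 ratios were 0.31 and 0.15 (mean 0.23, SD 0.11, n = 2), and the gene was not called.

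**Figure D3:**
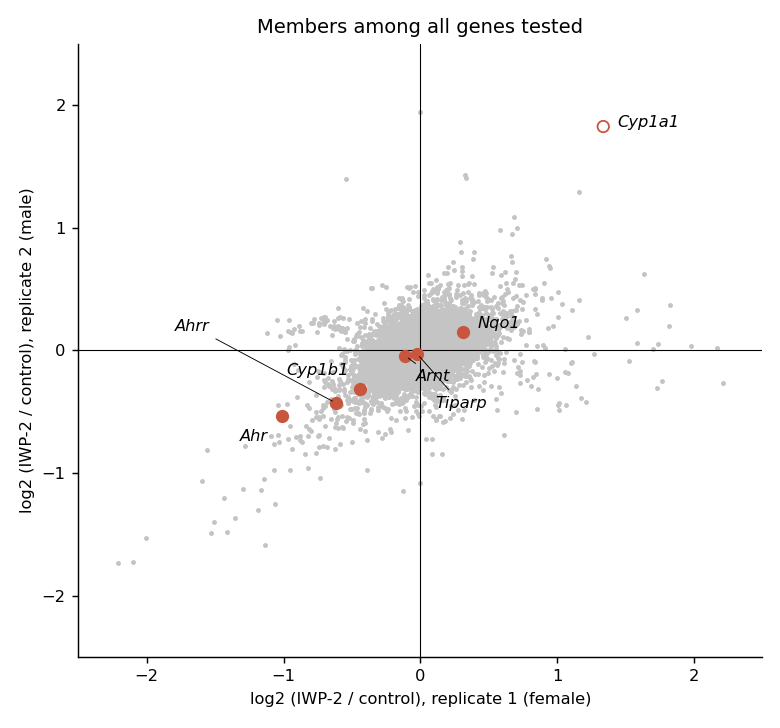
Log2 ratio of IWP-2 over control in replicate 1 (horizontal axis) and replicate 2 (vertical axis) for the 14336 genes tested (grey) and the 7 genes (red, 1 probe each; *Cyp1a1*, open, was below the signal threshold). The axes end at 2.5, which leaves 7 tested genes outside. *Cyp1a1* lies at the upper right, with *Lrrc55* (1.16 and 1.29) the other gene above 1 on both axes, *Ahr*, *Ahrr* and *Cyp1b1* lie at the lower left, and *Arnt* and *Tiparp* lie in the middle of the cloud.

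In the order of their mean log2 ratios the genes ran from *Ahr* (-0.77) over *Ahrr* (-0.52), *Cyp1b1* (-0.38), *Arnt* (-0.08), *Tiparp* (-0.03) and *Nqo1* (0.23) to *Cyp1a1* (1.58). The ranges of *Ahr* and *Ahrr* over the arrays overlapped, as did those of *Ahrr* and *Cyp1b1*, while *Cyp1a1* was apart from all others on both arrays. Of the targets, then, 1 had a large positive ratio, 1 a small positive one, 2 were lower and 1 was at 0.

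The 5 genes tested whose ratios on the 2 arrays lay nearest to those of the brighter *Ahr* probe were *Megf10* (-1.04 and -0.44), *Lyve1* (-0.97 and -0.44), *Nkd1* (-0.96 and -0.62), *Avpr1a* (-1.04 and -0.69) and *Ppm1e* (-1.09 and -0.70). *Nkd1* encodes a feedback inhibitor of WNT signalling and *Lyve1* a hyaluronan receptor of lymphatic endothelium and some macrophages. The distances, taken over the 2 arrays, ran from 0.094 for *Megf10* to 0.18 for *Ppm1e*. With 2 arrays such a likeness rests on 2 numbers per gene.

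Around these genes, 7 lists of the wider pathway held 94 further genes, of which 65 were tested and 1 passed the fit over all genes. That is 1.54%, beside 1.25% of all genes tested. It belonged to 23 further AHR-responsive genes, of which 20 were on the array and 14 tested. This was *Gsta2*, a glutathione transferase of the classical AHR battery, which was higher, from 194 to 267 in replicate 1 and from 242 to 332 in replicate 2 (mean log2 ratio 0.46, limma, adjusted p = 0.0369). Whether its probe also catches close relatives was not tested.

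Within the AHR-responsive list the directions differed. The median log2 ratio of all 14 was -0.03, beside -0.01 for all genes tested. On both arrays 5 of the 14 were lower and 6 higher, beside 29.1% lower and 25.7% higher of all genes tested. At an unadjusted p under 0.05 there were 5 higher, *Gsta2* among them, and 1 lower, beside 899 higher and 952 lower of all 14336 genes. *Cyp1a2*, the sister gene of *Cyp1a1*, was at the floor in all 4 channels. Some other values were picked out after they had been seen. *Ugt1a6b*, a glucuronosyltransferase gene that shares its 3′ exons with the rest of the *Ugt1a* cluster, gave 6190 and 7419 in replicate 1 and 6893 and 8456 in replicate 2 (mean 0.28, adjusted p = 0.134). Its dimmer relative *Ugt1a6a* gave 20.1 and 27.9, and then 22.5 and 35.9, and *Scin*, an actin-severing protein gene that AHR activates, gave 67.0 and 46.5, and then 90.5 and 62.5. Neither of these dim genes was tested.

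In the 6 other lists limma called 0 genes. The chaperones that hold the receptor in the cytoplasm were all 5 tested, with a median of -0.03, and ran from *Hsp90aa1* (-0.15, adjusted p = 0.424) to *Hsp90ab1* (0.03, adjusted p = 0.982); 0 had an unadjusted p under 0.05. Of the bHLH-PAS relatives and other partners of ARNT, which sense oxygen or keep circadian time, 9 of 16 were tested, with a median of 0.09, from *Per1* (-0.03, adjusted p = 0.978) to *Arntl* (0.18, adjusted p = 0.358), and 1 had an unadjusted p under 0.05.

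The NRF2 antioxidant genes, to which *Nqo1* also belongs, were all 18 tested, and 11 of them were higher on both arrays and 3 lower on both, with a median of 0.09. Over all genes tested 25.7% were higher on both and 29.1% lower on both. They ran from *Ephx1*, an epoxide hydrolase gene (-0.22, adjusted p = 0.297), to *Osgin1* (0.38, adjusted p = 0.161), and at an unadjusted p under 0.05 there were 6 higher and 1 lower, beside 899 higher and 952 lower of all 14336 genes. *Nfe2l2*, which encodes NRF2 and is on the AHR-responsive list too, was at 0.17 (adjusted p = 0.366).

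Tryptophan breakdown to kynurenine yields ligands of AHR. Of its 13 listed names, some of them synonyms, 11 were on the array and 3 were tested, with a median of 0.05, between *Ccbl2* (-0.17, adjusted p = 0.399) and *Ccbl1* (0.29, adjusted p = 0.124), and 1 had an unadjusted p under 0.05. *Ido1*, *Ido2* and *Tdo2*, which encode the enzymes of its first step, were at the floor in all 4 channels. Of the ADP-ribosylation genes related to *Tiparp*, a list that also holds tankyrases and macrodomain proteins, 11 of 12 were tested, from *Macrod2* (-0.26, adjusted p = 0.207) to *Tnks* (0.19, adjusted p = 0.338), with a median of -0.01 and 1 gene in each direction at an unadjusted p under 0.05. Of the electron donors and relatives of the P450 enzymes 7 of 10 were tested, with a median of 0.05. They ran from *Por* (-0.01, adjusted p = 0.996) to *Cyb5a* (0.19, adjusted p = 0.276). In this list 2 were higher and 0 lower at an unadjusted p under 0.05, beside 899 higher and 952 lower of all 14336 genes.

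**Figure D4:**
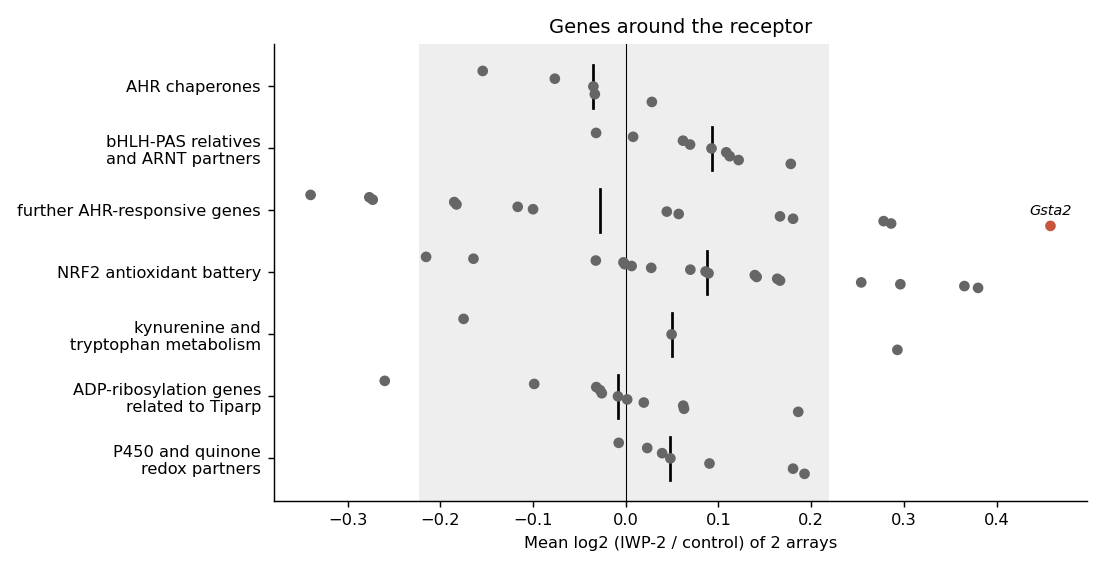
Mean log2 ratio of IWP-2 over control of the 2 arrays (horizontal axis) for each tested gene of the 7 lists (rows). The red point is the 1 gene called in the fit over all genes, black bars are list medians, and the grey band spans the 5th to the 95th percentile of all genes tested (-0.22 to 0.22). *Gsta2* at 0.46 lies outside the band, and the list medians lie within it.

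Markers of the cell types that a ureter holds were read beside these values, each as a summed signal of its list. The 6 lamina propria genes are also candidates from the study's own inhibitor arrays. It lists *Aldh1a2*, *Thy1* and *Car3* as lower with IWP-2 on the arrays used here. Their sum therefore cannot stand for the number of lamina propria cells. The 6 lamina propria genes summed to a signal of 28259 for the control against 22261 for the treated pool of replicate 1, and 21963 against 21801 in replicate 2, with 1 called lower (*Aldh1a2*, the retinoic acid synthesis enzyme gene, mean log2 ratio -0.63), 3 lower on both arrays and 2 higher on both, and a list median of -0.22. The genes higher on both were *Foxf1* (mean log2 ratio 0.37) and *Ptch1* (0.26), neither of them called. The 7 urothelial genes summed to 87259 and 113721, and then 106329 and 114693, with 0 called by limma, 5 higher at an unadjusted p under 0.05 (899 of the 14336 genes tested), 6 higher on both arrays and a median of 0.29. The 6 smooth muscle genes summed to 85296 and 84634, and then 73658 and 84723, the 5 macrophage genes to 5069 and 5172, and then 5169 and 5537, and the 5 endothelial genes to 13878 and 12605, and then 11795 and 12328. The 4 Schwann cell and neuron genes summed to 5681 and 3551, and then 4829 and 5531, and the 4 adipocyte genes, with *Lep* at the floor, to 12302 and 14481, and then 12485 and 15294. Of the kidney tubule markers *Umod* and *Slc12a1* were at the floor in all 4 channels, and none of the 4 was tested. In these other lists limma called 0 genes. The lamina propria sum hides opposite changes. In replicate 2 *Foxf1* (log2 ratio 0.54), *Ptch1* (0.49) and *Bmp4* (0.18) were higher, and *Aldh1a2* (-0.50), *Thy1* (-0.37) and *Car3* (-0.38) were lower. The latter were lower in replicate 1 as well (-0.76, -0.60 and -0.90). The urothelial sum, though not *Cdh1* in that list (log2 ratios 0.20 and -0.11), was higher on both arrays, as *Cyp1a1* was. That sum rose more in replicate 1, whereas the log2 ratio of *Cyp1a1* was larger in replicate 2 (1.34 and 1.83). What part either tissue had in the ratios of the 7 genes was not tested.

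In the deposited series table, which gives a signed fold change per array with 1 decimal, *Cyp1a1* was listed at 2.5 and 3.6, the brighter *Ahr* probe at -2 and -1.4, *Ahrr* at -1.5 and -1.3, *Cyp1b1* at -1.4 and -1.2 and *Nqo1* at 1.2 and 1.1.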

How the data were processed

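Per the labels and the study's methods, each array held a control and a treated pool of one sex, with the dyes exchanged between the arrays. The deposited intensities are processed signals, which the authors obtained with Feature Extraction, version 12.2.0.7 in the file header and 10.7.3.1 in the submitters' processing notes. Background and dye bias are already corrected in them. The deposited mean and local background intensities served for the normexp alternative. The deposited log10 ratios of red over green were used to check direction only. The deposited series table holds a score, a signed fold change of unstated centring (column medians of 1 and 1). It lay within 0.1 of the recomputed fold for 95.1% to 95.6% of genes, with the same direction for 99.96% to 100% beyond 1.1-fold.

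Here control spots and flagged spots were left out. A second loess, run per array in limma 3.58.1 under R 4.3.3, was followed by the mean over the 4 spots of each probe, a floor of 15 and log2. A gene took its values from the probe whose log2 signal, averaged over 4 channels, was highest. Log2 ratios were tested against 0 with lmFit and eBayes, with 1 residual degree of freedom and Benjamini-Hochberg adjustment at 0.05. Control and treated pools of an array share a replicate number and sex and are paired by construction. The steps were tested on simulated data, with planted differences all larger than the mean ratios of *Ahr*, *Ahrr* and *Gsta2*. Recovery of differences as small as theirs was not tested.

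The genes and lists were chosen with earlier results of these data known. The lists leave out 2 genes that are not reported here, which stay in the fit over all genes. Named are the 7 genes, list genes called or else those at either end of a list, the 5 genes nearest to *Ahr*, *Axin2* and *Porcn*, and others as said in the text. *Nfe2l2*, *Cyp1a2*, *Ido1*, *Ido2*, *Tdo2* and the cell type markers were named outside this rule, after their values were seen. The alternatives changed the background correction, normalization, dim-probe filter, floor, flagged spots, probe summary and pairing. Probe coordinates are mm9, as in the array files, and promoters are GRCm38.p6. No coordinates were converted.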

Additional observations from a re-analysis of the deposited data

Results flagged for a closer look

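Some list medians and named genes had ratios of opposite sign on the 2 arrays. With 1 array per sex the difference between the female and the male pools was not tested, and the dyes were exchanged with the sex. The female minus male difference in the median log2 ratio was 0.11 for the further AHR-responsive genes (0.07 and -0.04), 0.31 for the kynurenine genes (0.22 and -0.09) and 0.054 for the ADP-ribosylation genes (0.05 and -0.01). Among the marker lists it was -0.26 for smooth muscle (-0.05 and 0.21), -0.27 for endothelium (-0.13 and 0.14) and -0.99 for the adipocyte genes (-0.15 and 0.84), of which 2 were tested. For single genes it was -0.073 for *Hsp90ab1*, 0.066 for *Per1* and 0.079 for *Por*. The 7 genes themselves each had the same sign on both arrays at the probe used.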

How the results depend on the processing

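The number of genes called among all genes was 179, with 2 of the 7 genes and 1 list gene. It was 435, 4 and 3 with normexp, 198, 3 and 2 with a mean signal above 50, 117, 0 and 0 with no second loess, 67, 0 and 0 with the mean over all probes of a gene, and 0, 0 and 0 both with no filter on signal and with the well above background criterion. Treating the channels as separate samples, with no replicate block, left 8, 0 and 0. At an unadjusted p under 0.05 there were, in the order given, 5, 5, 4, 3, 2, 3 and 2 of the 7 genes, beside 2539 of 19760, 2077 of 15620, 1820 of 14338, 1772 of 13580, 2028 of 29924, 2133 of 19910 and 978 of 14336 of all genes, and in the last 5 settings 17, 19, 10, 14 and 5 list genes. The gene added above 50 was *Cyp1a1*, which passes that threshold only through the treated pools. Those added with normexp were *Cyp1a1* and *Cyp1b1*. For the 7 genes the filter and pairing settings were chosen after seeing the data. The calls of *Ahr*, *Ahrr* and *Gsta2* thus depend on the probe summary, the filter and the replicate block. They were also lost with no second loess, but were kept with median centring in its place. The cause was not tested. With median centring 193 genes were called, 44% of them higher, beside 29.1% with loess, and with normexp 40%. The filter on control signal and fold passed 51 genes as lower and 11 as higher, and with only 1 of the arrays between 78 and 160 as lower and between 25 and 112 as higher. Over 9 settings the mean log2 ratio of *Ahr* lay between -0.77 and -0.48, that of *Ahrr* between -0.53 and -0.37, that of *Cyp1b1* between -0.38 and -0.34, that of *Cyp1a1* between 1.13 and 1.62 and that of *Nqo1* between 0.20 and 0.28. Both arrays are on 1 slide, so slide could not be fitted as a block. With 1 residual degree of freedom and 2 arrays, small differences in dim probes are not measurable.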
